A study of Mus musculus with 3 samples.

Results

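The interleukin-1 family and its receptors were examined in skin-resident macrophages of the mouse during the resting phase of the hair cycle. The 10 genes are the ligands Il1a, Il1b, Il18, and Il33, the antagonist Il1rn, the receptor chains Il1r1, Il1rl1, and Il1rap, the decoy receptor Il1r2, and the binding protein Il18bp. They were found through the RefSeq transcript that the array files give for each probe, which yielded 13 probes for these 10 genes, out of 26056 probes and 19738 genes that could be given a symbol. Macrophages were sorted from the digested backskin of CD1 mice as F480+CD11b+ cells without Gr1, at postnatal day 42 (P42), 55 (P55), and 69 (P69). The study calls these stages early, mid, and late telogen, and its text gives a slightly later day than the sample label for the early stage. The labels name no treatment and no transgene in any group. Each stage is 1 Agilent array in 1 color (Cy3), made from the RNA of 3 pooled littermates after amplification of a very small amount.

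Interleukin-1 alpha and beta bind the receptor IL1R1, which then recruits the accessory chain IL1RAP and signals through MYD88 to NF-kB. IL1RN occupies the same receptor without signaling, and IL1R2 captures the ligand but lacks a signaling domain. Interleukin-33 signals in the same way through IL1RL1 (ST2) and IL1RAP, whereas interleukin-18 has its own receptor chains and is neutralized by IL18BP. The precursors of interleukin-1 beta and interleukin-18 are cut by caspase-1 in the inflammasome, and in skin epithelial cells, macrophages, and Langerhans cells are known sources of several of these ligands.

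With 1 array per stage no difference can be set against a spread between mice, so no test was made and no p-value is given. Levels are log2 values relative to the 75th percentile of the signal of each array, and changes are differences between such levels. Levels of different probes are compared only to choose the brightest probe of a gene and in the summed levels of marker lists. Such a sum mostly follows its brightest probes. Among probes with 10 or more spots, the SD between spots had a median (log2) of 0.126 at P42, 0.108 at P55, and 0.119 at P69. This spot error gives a difference an SD of 0.166 for P55 against P42, 0.174 for P69 against P42, and 0.161 for P69 against P55, without the variation between mice, sorts, and amplifications. A probe that the scanner software did not call well above background has no measured level there, and its change is then given as a bound ("at least"), against the higher of the probe's own signal and the dimmest signal that passed the call on that array. Of all probes, 71.4% were well above background at P42, 59.6% at P55, and 68.7% at P69.

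The deposited files assign the later arrays in opposite ways. The column of the authors' log2 table for P55 matched the scanner file deposited for P69, with 99.9% of 36380 probes within 0.05 of the median offset. Its column for P69 matched the scanner file deposited for P55 in the same way (99.8%). Values below follow the scanner files. In the other reading, each value given for P55 belongs to P69 and the reverse, so that the changes from P42 exchange places and the difference between the later arrays turns its sign.

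Of the 10 genes, 7 were well above background on the P42 array, 8 on the P55 array, and all 10 on the P69 array. Relative to P42, Il18, Il1r1, and Il1rap were at least 2-fold higher on both later arrays, and Il33 was at least 2-fold higher on the P69 array. Il1b was the gene that was at least 2-fold lower, and this on the P69 array. On the P55 array 3 of 8 genes with a value were at least 2-fold higher and 0 at least 2-fold lower, compared to 29.1% and 16.9% of all 15843 genes with a value. On the P69 array 4 of 10 were at least 2-fold higher and 1 lower, compared to 22.2% and 20.7% of 16163 genes. With 8 and 10 genes, no difference from these shares is read from the counts. The median change of the members was 0.37 at P55 and 0.75 at P69, beside 0.22 and 0.15 over all genes. At 10-fold, the threshold of the study, 0 members had a value that large, compared to 1.12% of genes upward and 0.316% downward at P55, and 0.668% and 0.464% at P69. The values of Il1a, Il33, and Il1rap are lower bounds, so that a 10-fold change of these cannot be told from a smaller one.

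The ligands differed among themselves. Il1b, which encodes the secreted form that macrophages make on activation, was measured by 10 spots. Its level was 4.77 at P42 (SD over spots 0.064), 4.27 at P55 (0.057), and 3.55 at P69 (0.080, 9 spots used). Il1b was thus highest on the P42 array and lowest on the P69 array, with steps larger than the error of its spots. It was 1.41-fold lower at P55 (-0.50) and 2.33-fold lower at P69 (-1.22) than at P42. Of all genes, 15.6% had a lower change at P69. The decrease depended on the scaling. Before scaling, its signal was 11275 at P42, 9571 at P55, and 10836 at P69, so that the P69 array differed from P42 by -0.06. The signal of that array was higher in general, with a 75th percentile of 927 compared to 414 at P42 and 497 at P55. Without scaling the median gene was 1.32 higher at P69 than at P42, and Il1b lies below the median gene on either scale.

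Il18, which encodes a ligand stored as a precursor and known for inducing interferon gamma in lymphocytes, went the other way. Its level was -0.13 at P42, 1.71 at P55, and 1.38 at P69. Both later arrays were thus above P42, by 3.57-fold (1.83) at P55 and 2.85-fold (1.51) at P69, and 90.1% and 89.6% of genes had a lower change. The later arrays differed from each other by -0.32, which is 2.01 times the SD given by the spot error.

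Il33, an alarmin held in the nucleus of barrier cells and released on damage, was seen on a single array. Its signal was 4.34 at P42, 6.42 at P55, and 232 at P69, and the P42 and P55 signals were not well above background. The corresponding level at P69 was -2.00. Il33 was at least 5.43-fold higher at P69 than at P42 (2.44) and at least 4.12-fold higher than at P55 (2.04). These bounds depend on the background correction, and with normexp they were 1.18 and 1.36. Of the genes with a value, 7.85% were at least 2-fold higher and 11.3% at least 2-fold lower at P69 than at P55, and Il33 was the 1 member of 10 to pass this fold in either direction. In the reading of the log2 table, this signal belongs to P55, and the difference of P69 from P55 becomes at least 4.12-fold lower (-2.04). Il33 has 1 probe with 1 spot per array, so that no second measurement bears on it.

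Il1a, the ligand that is active without cleavage and stays in or on the cell, was close to background. Its signal was 17.2 at P42 and 6.01 at P55, neither well above background, and 61.6 at P69. The P69 level (-3.91) was at least 1.44-fold above P42 and at least 1.09-fold above P55. These bounds are small, and no order of the P42 and P55 arrays can be given for Il1a or Il33.

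Il1a and Il33 were well above background only on the P69 array, and Il1b was lower there than on the others. The 100 bases before the start of these genes are shown to set this against the sequence near the start (RefSeq, build GRCm38.p6, 5′ to 3′). Capitals mark matches to 4 motifs searched on both strands, namely the TATA box as TATAAA, the AP-1 site as TGANTCA, a PU.1 site as GAGGAAG, and the NF-kB motif. Il33 has a pair of starts in the table, and the downstream one is shown.
Il1a, chr2:129309973-129310072, minus strand: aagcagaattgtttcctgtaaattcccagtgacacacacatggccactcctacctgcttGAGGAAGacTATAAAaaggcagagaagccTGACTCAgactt
Il1b, chr2:129371140-129371239, minus strand: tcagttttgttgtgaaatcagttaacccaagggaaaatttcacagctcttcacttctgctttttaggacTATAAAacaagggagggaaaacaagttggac
Il33, chr19:29945690-29945789, plus strand: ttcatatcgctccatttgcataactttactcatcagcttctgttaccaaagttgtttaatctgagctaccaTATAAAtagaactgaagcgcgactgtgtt

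Each of these windows holds TATAAA, 32 bases before the start for Il1a, 31 for Il1b, and 29 for the downstream start of Il33, whereas the window of its upstream start does not hold it. Il1a also holds the AP-1 site 12 bases and the PU.1 site 41 bases before its start. Over all 15 starts of the 10 members, 3 held TATAAA in this window, 1 the AP-1 site, 1 the PU.1 site, and 0 the NF-kB motif. Among 32851 promoters of the table, the shares were 5.56%, 2.73%, 4.72%, and 3.00%, respectively. A match describes letters and is no evidence of binding. The 3 genes with TATAAA did not share a pattern on the arrays, since Il1b was measured on all of them and was lowest where Il1a and Il33 were seen.

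The antagonist Il1rn followed the direction of Il1b. Its level was 2.70 at P42, 2.07 at P55, and 1.91 at P69. It was highest on the P42 array, and the later arrays differed by 1.01 times the SD of the spot error. The change from P42 was -0.63 at P55 (1.55-fold lower) and -0.79 at P69 (1.73-fold lower), which is under 2-fold on both. The sign at P69 turned without scaling (0.37), where the median gene was 1.32 higher.

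**Figure D1:**
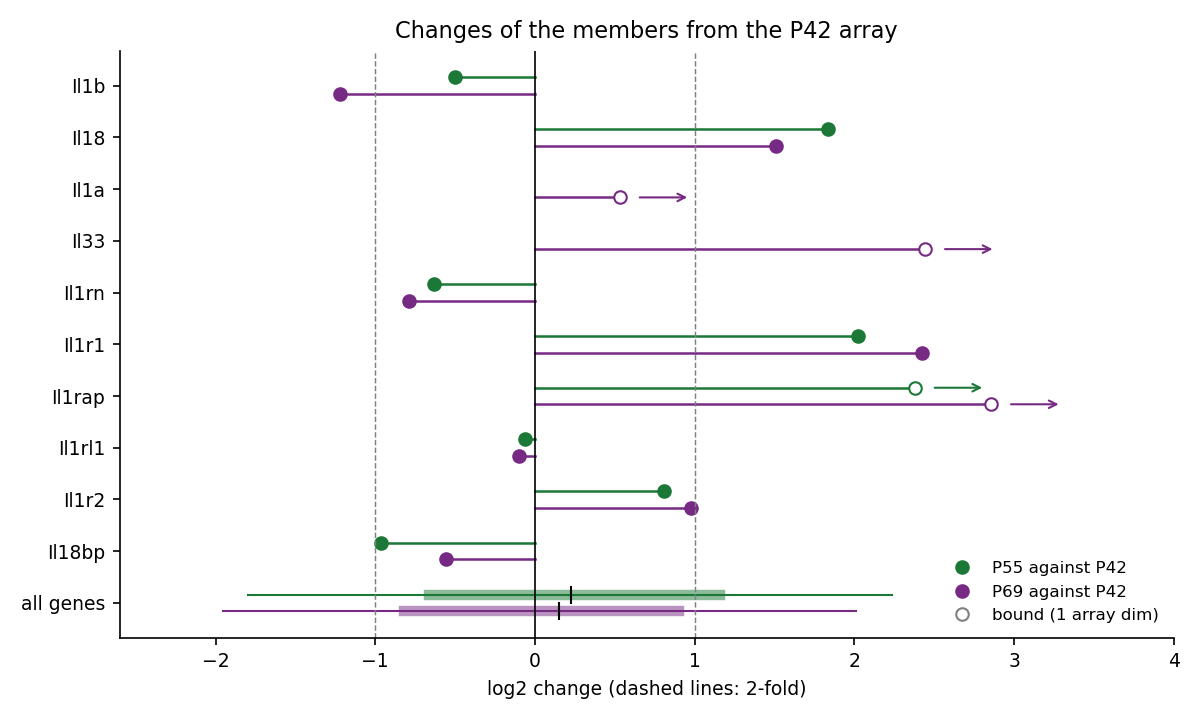
Log2 change from the P42 array (x axis) for each member (y axis) on the P55 (green) and P69 (purple) arrays. Open points with arrows are bounds, dashed lines mark 2-fold, and the lowest row gives all genes as the median (tick), quartiles (thick bar), and 5th to 95th percentile (thin line). Il1r1, Il1rap, and Il18 lie right of the 2-fold line on both arrays, and no member lies left of it on the P55 array.

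Of the receptors, Il1r1, the signaling chain for interleukin-1 alpha and beta, had a level of -1.96 at P42, 0.06 at P55, and 0.46 at P69. Both later arrays were above P42, by 4.06-fold (2.02) at P55 and 5.36-fold (2.42) at P69. Of all genes, 92.9% had a lower change at P55 and 97.4% at P69. Across all scalings and filters tried with the arrays as deposited, the change of Il1r1 stayed between 1.55 and 2.58 at P55 and between 1.92 and 3.59 at P69.

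Il1rap, the accessory chain shared by the receptors for interleukin-1 and interleukin-33, was measured by a pair of probes for different transcripts. The brighter one had a level of -4.87 at P42, where it was not well above background, -2.06 at P55, and -1.59 at P69. It was at least 5.19-fold higher at P55 (2.38) and at least 7.24-fold higher at P69 (2.86) than at P42, and 95.9% and 98.6% of genes had a lower change. The other probe was well above background on the P69 array alone (-3.43), at least 2.01-fold above P42. On neither probe was the transcript measured at P42. With normexp background correction the change of the brighter probe was 0.93 at P55 and 1.15 at P69.

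Il1rl1, the receptor chain for interleukin-33 (ST2), had 3 probes that disagreed. The brightest had a level of 1.00 at P42, 0.94 at P55, and 0.90 at P69. These levels differed by at most 0.56 times the SD of the spot error. A further probe for the same transcript was at -1.51 at P42, not well above background at P55 (-4.12), and at -3.49 at P69, which is at least 5.80-fold lower at P55 (-2.54) and 3.95-fold lower at P69 (-1.98). The probe for the other transcript was at -2.85, -3.60, and -2.97, with changes of -0.75 and -0.12. No direction can therefore be given for Il1rl1 as a gene.

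The decoy receptor Il1r2 was higher on both later arrays, with a level of 2.27 at P42, 3.08 at P55, and 3.25 at P69. The change was 1.75-fold (0.81) at P55 and 1.97-fold (0.98) at P69, just under 2-fold, and the later arrays differed by 1.06 times the SD of the spot error. Il18bp, the secreted inhibitor of interleukin-18, had a level of 0.89 at P42, -0.08 at P55, and 0.33 at P69. It was lower on both later arrays, by 1.95-fold (-0.97) at P55 and 1.47-fold (-0.55) at P69. Il18bp thus moved opposite to its ligand Il18 on these scaled values, whereas without scaling its change at P69 was 0.61.

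The members that were at least 2-fold higher on both later arrays are shown by the same window. Il1r1 has a pair of starts in the table, and the downstream one is shown.
Il18, chr9:50554600-50554699, plus strand: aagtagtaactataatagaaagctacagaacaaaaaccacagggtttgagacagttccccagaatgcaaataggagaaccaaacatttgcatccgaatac
Il1r1, chr1:40266486-40266585, plus strand: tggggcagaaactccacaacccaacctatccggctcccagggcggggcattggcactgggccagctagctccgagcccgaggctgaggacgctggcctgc
Il1rap, chr16:26581605-26581704, plus strand: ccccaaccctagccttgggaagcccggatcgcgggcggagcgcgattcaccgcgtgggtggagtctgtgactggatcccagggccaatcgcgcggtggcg

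None of these windows holds one of the 4 motifs. The share of G and C was 38% for Il18, 68% for Il1r1, and 70% for Il1rap, compared to a median of 55% (quartiles 46% and 65%) over all promoters. The genes that were higher together thus had windows at both ends of this range. The upstream start of Il1r1 had 49%. In a window of 250 bases, 1 of the 15 starts held the NF-kB motif (the downstream start of Il1r1), compared to 7.25% of all promoters.

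Several of these receptors lie side by side on chromosome 1, in the order Il1r2, Il1r1, Il1rl2, Il1rl1, Il18r1, and Il18rap (RefSeq, GRCm38.p6). In that order, the changes at P55 were 0.81, 2.02, 1.10, -0.06, 0.77, and -2.14, and at P69 they were 0.98, 2.42, 1.16, -0.10, 0.49, and -1.80. Il1r2, Il1r1, and Il1rl2 were thus higher on both later arrays, as was Il18r1, whereas its neighbor Il18rap was lower. For Il1rl1 the brightest probe is used here, and its probes disagreed as given above. Il1rl2 is the receptor chain for the interleukin-36 ligands, and Il18r1 and Il18rap form the receptor for interleukin-18. A further probe of Il18r1 had changes of 3.70 and 3.84, so that its probes differ in size.

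**Figure D2:**
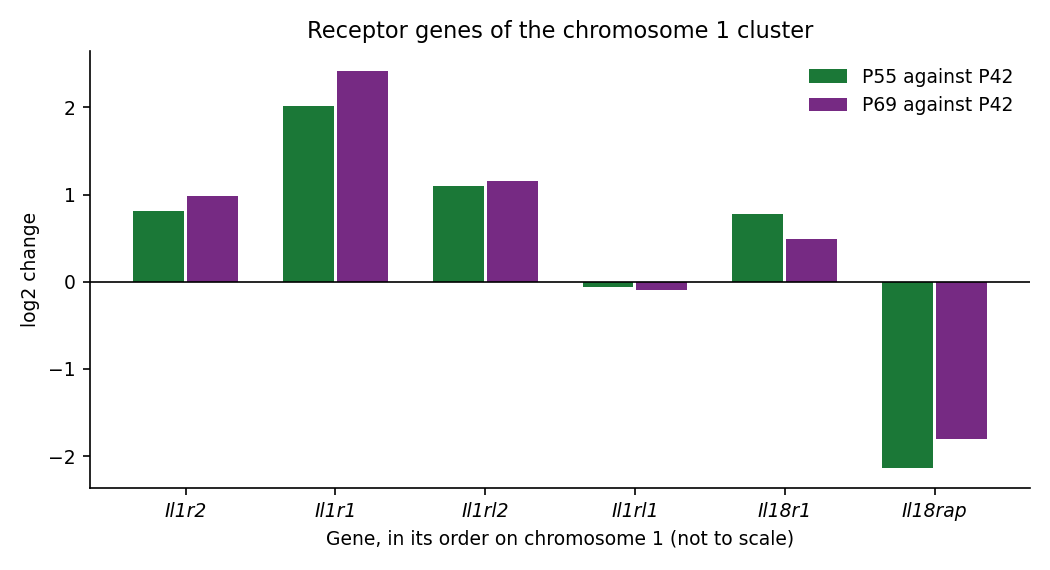
Log2 change from the P42 array (y axis) for the 6 receptor genes in their order on chromosome 1 (x axis, not to scale), each by its brightest probe, on the P55 (green) and P69 (purple) arrays. Il1r1 has the highest bars (2.02 and 2.42) and Il18rap the lowest (-2.14 and -1.80).

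Other genes of the pathway were examined by lists. Of 5 further genes of the ligand family on the array (Il1f5, Il1f6, Il1f8, Il1f9, and Il1f10), 0 were well above background at P42, 0 at P55, and 2 at P69 (Il1f5 and Il1f8). The first 4 are the interleukin-36 genes, of which Il1f5 (Il36rn) is the receptor antagonist. Among the other receptors, 1 of 5 with a value was at least 2-fold higher and 1 lower at P55, and 1 was higher and 2 lower at P69. Sigirr, an inhibitory receptor, had changes of 0.54 and 0.40.

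Of 18 genes of receptor signaling, all were well above background on every array, 2 were at least 2-fold higher and 2 lower at P55, and 1 was higher and 2 lower at P69. The median changes of the list were -0.15 and 0.22. Myd88, the adaptor of the interleukin-1 receptors, had changes of 1.14 at P55 and 0.46 at P69. The shares over all genes were 29.1% higher and 16.9% lower at P55 and 22.2% and 20.7% at P69, and no difference of this or the following lists from them was tested.

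Of 15 genes of the inflammasome and of ligand processing, 3 were at least 2-fold higher and 4 lower at P55, and 2 were higher and 5 lower at P69, with median changes of -0.30 and -0.60. Under other processing, the authors' log2 table included, these medians lay between -1.15 and 0.26 at P55. At P69 they lay between -0.81 and 0.56, so that their sign depended on the scaling. Aim2, a sensor of cytosolic DNA, was the single gene of the pathway lists that was at least 4-fold higher on both later arrays, by the brightest probe of each gene, with a level of -3.08 at P42, -0.87 at P55, and -0.37 at P69 (changes 2.21 and 2.71). Casp1, the protease that matures interleukin-1 beta and interleukin-18, had changes of -0.07 and 0.47. Nlrp3, another sensor, had changes of -0.65 and -0.93 by its brightest probe and -0.15 and 0.03 by another. Pycard, the adaptor that joins sensor and protease, had changes of 0.90 and 0.09.

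Of 13 genes known to respond to interleukin-1, 10 had a value at P55, with 1 at least 2-fold higher and 3 lower, and 10 at P69, with 1 higher and 4 lower. The median changes were -0.30 and 0.08. Ptgs2, the inducible cyclooxygenase, was the single gene of the pathway lists that was at least 4-fold lower on both by its brightest probe. Dimmer probes also passed this fold for Mefv, a further sensor (-2.71 and -2.23, beside -1.36 and -1.90 by its brightest), and, upward, for Il18r1 and for Nfkb1 (2.28 and 2.37, beside 0.21 and 0.47). The level of Ptgs2 was 0.52 at P42, -4.69 at P55 (not well above background), and -2.15 at P69, over 10 spots, which is a change of -4.56 or lower at P55 (a bound) and -2.67 at P69. Il6 had changes of -0.44 and 0.19, and Cxcl2, a chemokine for neutrophils, -0.15 and 1.12. Csf2 and Csf3 did not pass the background call at any stage.

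**Figure D3:**
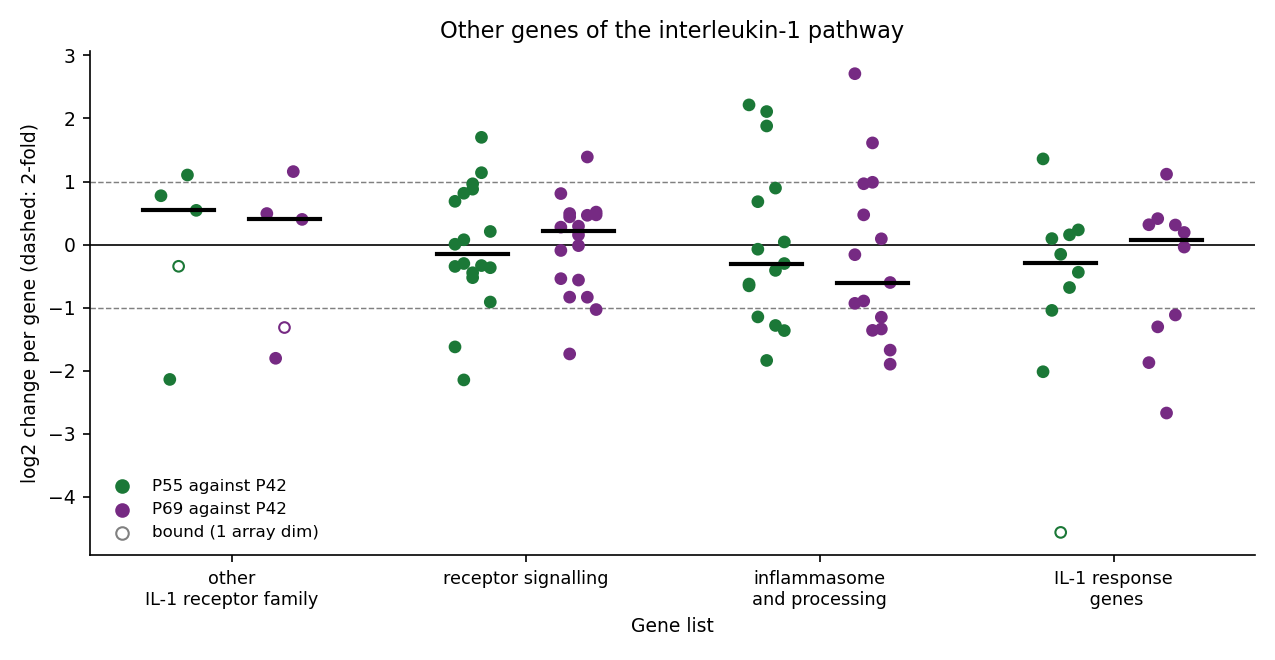
Log2 change from the P42 array (y axis) of each gene with a value in 4 lists of the pathway (x axis), on the P55 (green) and P69 (purple) arrays. Open points are bounds, black lines are list medians, and dashed lines mark 2-fold. Genes of each list lie on both sides of 0, with Ptgs2 lowest (-4.56 and -2.67) and Aim2 highest (2.21 and 2.71).

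The pattern most like that of Il1r1, the member with the largest range among those measured on all arrays, was sought among 13080 genes as the smallest distance between the 3 levels after centering. The nearest were Shq1 (distance 0.025), Aimp1 (0.027), and Nanos3 (0.033). A profile centered over 3 arrays leaves few free values, and nothing is read from this likeness.

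Markers of other cell types were read beside these results, since the arrays measure a sorted population in bulk, in which fewer cells of a type and less RNA per cell cannot be told apart. The macrophage markers were present, with all 14 on the array well above background at each stage. On each later array, 0 of these were at least 2-fold higher and 3 lower. Their median changes were -0.50 and -0.38, beside 0.22 and 0.15 over all genes. Their summed level (relative to the 75th percentile, linear) was 950, 845, and 575. The gene of the F480 antigen, Adgre1, had levels of 4.83, 5.51, and 5.15. That of CD11b, Itgam, was the brightest of the list, at 8.95, 8.73, and 7.85. Of 15 keratinocyte markers, all well above background on each array, 12 were at least 2-fold higher at P55 and 11 at P69, with median changes of 3.29 and 3.21. Krt5 was at 1.58, 5.55, and 4.91. The summed level of that list was 278, 407, and 275, of which Trp63 (8.03, 8.04, and 7.35) made up most. A dimmer probe of Trp63 was at -3.98, -0.83, and 0.06, with changes of 3.15 and 4.04. Of 7 markers of Langerhans and dendritic cells with a value, 3 were at least 2-fold higher and 0 lower at P55, and 3 higher and 1 lower at P69, with median changes of 0.22 and -0.31. Their sum was 45.2, 168, and 109, and Cd207 (langerin), at 3.78, 6.76, and 5.90, made up most of it on the later arrays, while Cd83 had changes of -0.18 and -0.31. Most keratinocyte markers and Cd207 were thus higher on both later arrays, as were Il18, Il1r1, Il1rap, and Il1r2, and their part in those changes was not tested.

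Of 8 T cell markers, 3 were at least 2-fold higher and 1 lower at P55, and 4 higher and 2 lower at P69, with sums of 9.15, 14.4, and 10.2. Of the neutrophil markers, 2 of 7 with a value were at least 2-fold higher and 1 lower at P55, and 2 of 6 higher and 2 lower at P69. Their sum was 6.51, 20.2, and 13.4, most of it from Retnlg (2.19, 3.90, and 3.35), and Elane passed the background call at no stage. Of 10 fibroblast markers, 9 were well above background at P42, 8 at P55, and 10 at P69, with sums of 96.3, 60.7, and 67.2. Of 9 fibroblast markers with a value at P55, 1 was at least 2-fold higher and 3 lower than at P42, with a median change of -0.82. At P69, 2 of 10 were higher and 3 lower, with a median change of 0.25. The 2 higher at P69 were Fn1 (2.16) and Dpt (1.86), whereas Col3a1 and Col1a2 had changes of -1.05 and -0.80. All 10 endothelial markers were well above background throughout, with sums of 44.0, 30.2, and 39.3. Compared to P42, 0 were at least 2-fold higher and 5 lower at P55, and 1 was higher and 1 lower at P69. Their median changes were -0.98 and -0.15. At P69 against P55, 3 were at least 2-fold higher and 0 lower, with a median of 0.63. The mast cell list summed to 4.19, 1.97, and 1.71, with 7, 3, and 8 of 9 markers well above background. The part of these cells in the values of Il33 and Il1rl1 was not tested.

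**Figure D4:**
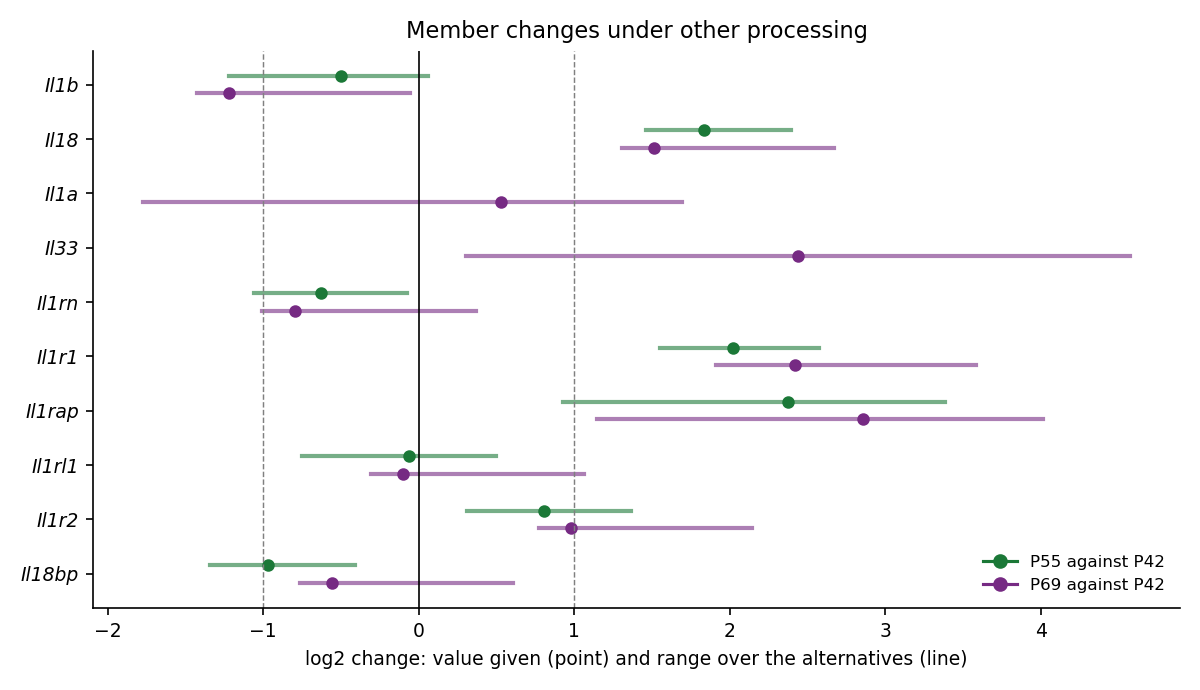
Log2 change from the P42 array (x axis) of each member (y axis) as given here (points) and its lowest to highest value over the other scalings, background corrections, filters, and the authors' log2 table (lines), on the P55 (green) and P69 (purple) arrays. That log2 table does not hold the probes used here for Il1rn, Il1rl1, Il1r2, and Il18bp, so their lines leave it out. The lines of Il18, Il1r1, Il1rap, Il1r2, and Il33 stay right of 0, whereas those of Il1a and Il1rl1, of Il1b at P55, and of Il1rn and Il18bp at P69 cross it. The log2 table assigns the later arrays the other way, so its values come from the other later array. Il1a crosses 0 through that table alone (-1.77), and the low end of Il33 (0.31) is also its value.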

How the data were processed

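The scanner files deposited by the authors (Agilent Feature Extraction 10.7.3.1) hold spot intensity on a linear scale, background-corrected by the software and not normalized between arrays. The authors also deposited log2 values for 36409 probes, whose normalization is not given in the sources used here and whose column medians were 0.36, 0, and 0. Here control spots and outlier spots (162 at P42, 274 at P55, and 281 at P69) were left out, no spot was saturated, spots of a probe were averaged, and log2 intensity was scaled to each array's 75th percentile over 55681 probes. Detection used the deposited call of spots well above background (share of spots at least 0.5). The brightest probe stands for a gene. Names came from RefSeq transcripts. Bounds, counts at 2-fold, and medians were computed in Python 3.11.15, with normexp (offset 50) in limma 3.58.1. The scaling and change steps were tested on copies of the P42 array with known changes and random noise put in. The variation between sorts and amplifications was not part of that test. The number of arrays limits the precision.

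The members and lists were chosen with earlier results of these data known. Named were all members, pathway genes at least 4-fold different on both later arrays, a fixed set of pathway genes, and markers with high levels. Il36 genes were matched by older symbols.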

Additional observations from a re-analysis of the deposited data

How the results depend on the processing

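A total of 12 alternatives were run. Of 315 values for single members under them, 34 had the opposite sign, of which 2 were changes given as at least 2-fold. Without those 2, 170 moved by less than the technical spread and 143 by more. These counts include the exchange of the later arrays, which by construction turns the sign of every difference of P69 from P55. The log2 table assigns these arrays the other way, and it turned this sign for each member it holds. The number of opposite signs thus does not reflect processing alone. Members at least 2-fold higher at P55 numbered 3, compared to 2 with normexp and 2 where both arrays had to be well above background. Members at least 2-fold lower at P55 numbered 0, compared to 2 with a 75th percentile restricted to probes detected throughout, 3 with quantile normalization, 1 of the 4 with a value in the authors' log2 table, 1 with the later arrays exchanged, 1 with the filter on a positive and significant signal, and 1 with no filter. At P69, 4 members were at least 2-fold higher, compared to 6 with median scaling, 7 without scaling, and 2 where both arrays had to be well above background. At P69, 1 member was at least 2-fold lower, compared to 0 with median scaling, 2 with quantile normalization, 0 without scaling, and 0 with the arrays exchanged. Il33 at P69 against P55 was -4.27 in the log2 table and -2.04 with the arrays exchanged, which follows from the opposite assignment of the later arrays. Counts with the arrays exchanged are those of the other later array. The member lower at P55 in the log2 table was Il1b. Its changes there were -1.22 at P55 and -0.50 at P69, as given here for the other later array. The cause of the remaining differences was not tested.

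Median scaling moved the median gene to 0.86 at P55 and 0.65 at P69, and no scaling to 0.52 and 1.32. Among genes at least 2-fold different at P69, 51.7% were higher, compared to 78.9% with median scaling, 67.6% with quantile normalization, 39.4% with the restricted 75th percentile, and 94.4% without scaling. At P55 these shares were 63.3%, 85.5%, 68.1%, 42.9%, and 75.7%. Il1rl1 turned its sign with median scaling and without scaling, and Il1b at P55 was 0.06 with median scaling. No paired analysis was possible because each group holds 1 array.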
